A study of Homo sapiens with 10 samples.

Results

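KLHDC7B, CLGN, BEX2, LAMP3 and NIBAN1 are 5 genes that lay far apart between the control array of 0 h and the control array of 24 h. They were chosen by their measured difference between these 2 control arrays, out of 19775 genes with a probe set that names a single gene, and 11865 of those genes passed a filter on mean level and were tested. The samples were MiaPaCa-2 cells, an established human pancreatic tumour line, on 10 microarrays. On 8 arrays the cells had received supernatant of pancreatic stellate cells (PSC), themselves primed with the cumulative supernatant of tumour cell lines (TC), for 1, 2, 3, 4, 5, 6, 7 or 24 h. The other 2 arrays were controls at 0 h and 24 h, and each time had 1 array. All groups were the same line grown in the same way, and the labels do not say what the controls received, or whether arrays came from separate cultures. P-values therefore measure only the spread between these arrays, each of a different hour. That spread holds changes with time that a fit does not describe, and differences that may be technical. The question addressed is when each gene moved between the levels of the 2 controls during exposure.

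The 5 genes belong to different protein families, and several are known from cell stress. When cells lack amino acids or misfold proteins in the endoplasmic reticulum (ER), translation slows and the transcription factor ATF4 switches on genes for amino acid supply, protein folding and survival. CLGN encodes calmegin, an ER chaperone related to calnexin that is known from the testis. NIBAN1 encodes a stress-induced cytoplasmic protein that acts on translation. LAMP3 encodes a lysosomal membrane glycoprotein that marks mature dendritic cells and is induced in tumour cells by hypoxia and ER stress. BEX2 belongs to a family of small X-linked proteins linked to cell survival, and KLHDC7B encodes a protein with Kelch repeats whose function is unsettled.

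Before the results, the arrays at both ends of the exposure are described, because each lay nearer to the control of the other time. The 1 h treated array differed by 1 log2 unit or more from the 24 h control in 63 of 11865 genes and from the 0 h control in 388. At 24 h of exposure, 93 genes lay that far from the control of hour 0 and 387 from the other control. Between 1 and 7 h the number of genes apart from the 24 h control grew from 63 to 393. Both deposited tables give the same labels to the same control arrays, and the names used here follow them. Whether the labels of the 2 controls are in order was not tested, and their exchange would turn every place given below, in percent, into 100 minus itself.

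All 7 probe sets of the 5 genes were found. KLHDC7B and NIBAN1 have 2 each and the others 1, and of several the brightest on average was used. All 5 genes passed the filter, a mean over the 10 arrays at or above log2 5.79, while the second probe set of KLHDC7B, with a mean of 5.59, did not. By RefSeq on GRCh38.p14 the genes lie apart, KLHDC7B on chromosome 22 (50545899 to 50551023), CLGN on chromosome 4 (140388453 to 140427648), BEX2 on chromosome X (103309346 to 103310990), LAMP3 on chromosome 3 (183122215 to 183163813) and NIBAN1 on chromosome 1 (184791032 to 184974508). The control difference that chose them was 3.81 log2 units for KLHDC7B, 3.24 for LAMP3, 3.19 for NIBAN1, 2.81 for CLGN and 2.69 for BEX2, higher in the 24 h control. These are ranks 1, 2, 3, 5 and 7 among the genes tested, with GDF15 (2.91) and NUPR1 (2.78) between them. In all 100 genes, 0.843% of those tested, were higher in the 24 h control by 1 log2 unit or more, and nothing is read from the members' place among them.

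CLGN and BEX2 stood nearer to the 24 h control than to the 0 h control in every hour from 1 to 7, and at the 0 h control level at 24 h. CLGN had a log2 level of 5.26 in the 0 h control and 8.07 in the 24 h control. In the treated arrays of 1 to 7 h it had 8.18, 7.81, 8.22, 8.24, 7.91, 7.67 and 7.47, and at 24 h of exposure 5.30. The 7 arrays of 1 to 7 h thus lay within 0.77 log2 units of each other, and the 24 h treated array lay 2.17 below the lowest of them and 0.04 above the 0 h control. BEX2 had 6.99 in the 0 h control and 9.68 in the 24 h control, with 9.83, 9.73, 9.91, 9.97, 9.54, 9.52 and 9.31 from 1 to 7 h and 7.03 at 24 h. Its 24 h treated array lay 2.28 below the lowest earlier hour and 0.04 above the 0 h control. Neither gene's 1 to 7 h arrays overlapped the 0 h control or the 24 h treated array. For CLGN, as for LAMP3, these 2 arrays were under the filter level.

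LAMP3 went beyond the 24 h control. It had 4.52 in the 0 h control and 7.76 in the 24 h control, and from 1 to 7 h it had 8.28, 8.06, 9.19, 9.15, 8.80, 8.80 and 8.69. All 7 arrays lay above both controls, and the largest step between neighbouring hours was a rise of 1.12 from 2 to 3 h. At 24 h of exposure it had 4.82, which was 3.24 below the lowest earlier hour and 0.30 above the 0 h control.

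NIBAN1 stayed at the 24 h control level for 4 h and was lower from 5 h. It had 7.15 in the 0 h control, 10.34 in the 24 h control, 10.59, 10.59, 10.74, 10.63, 10.02, 9.75 and 9.40 from 1 to 7 h, and 7.96 at 24 h. The first 4 hours lay above the 24 h control and the next 3 below it, all far from the 0 h control. The second probe set of NIBAN1 had its peak, 9.46, at 4 h and its lowest level of these hours, 7.84, at 7 h, and the correlation between both probe sets over the 8 treated arrays was r = 0.957. Its 24 h treated level of 7.00 was 1.30 above the 0 h control, against 0.81 for the first probe set, so NIBAN1 was the gene left farthest from the 0 h control at 24 h.

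KLHDC7B left the 24 h control level within the hours of exposure. It had 4.62 in the 0 h control, 8.43 in the 24 h control, and 8.77, 8.15, 7.77, 6.95, 6.33, 6.57 and 5.78 from 1 to 7 h, with 5.18 at 24 h. Its 0 h control and its treated arrays of 7 h and 24 h were under the filter level, the 7 h array only just. Only the 1 h array lay above the 24 h control, and the largest step was a fall of 0.82 between 3 and 4 h, written as -0.82 in log2 units. The second probe set had 5.11 and 6.76 in the controls, 6.30 at 1 h, 5.06 at 7 h and 5.25 at 24 h. Its correlation with the first over the 8 treated arrays was r = 0.901. It was dimmer on average, but brighter than the first in the 0 h control and at 24 h of exposure. On the second probe set the hours from 5 to 7 lay near the 0 h control, at -6.64, 4.51 and -2.77% of the way to the 24 h control. There, 7 of the 10 arrays were under the filter level.

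**Figure D1:**
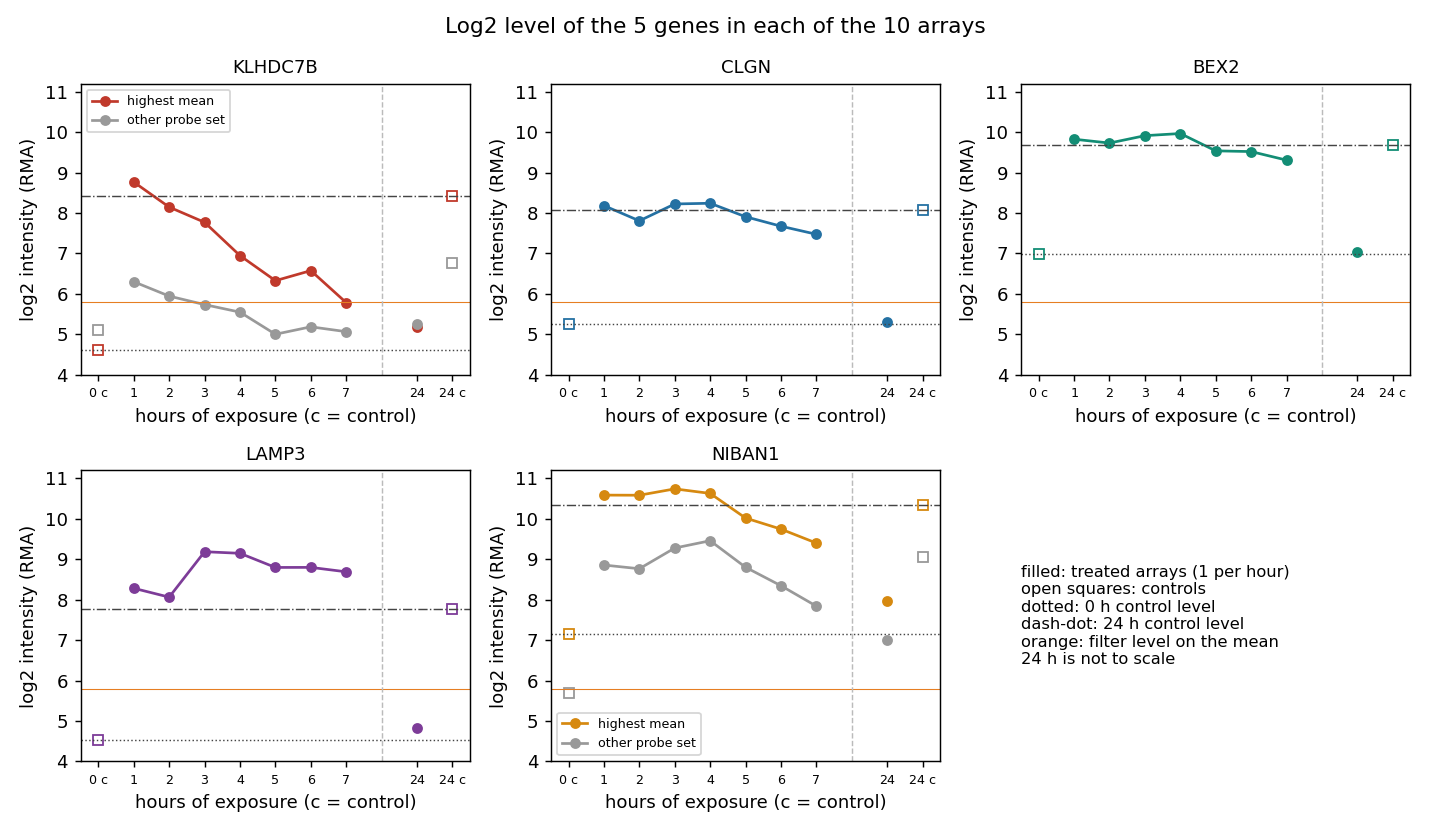
Log2 level (y axis) of the 5 genes in each array, by hours of exposure (x axis, 24 h not to scale). Filled points are treated arrays, open squares the controls, dotted and dash-dot lines the 0 h and 24 h control levels, and grey the second probe set where a gene has one. The orange line is the filter level. All coloured lines start near the 24 h control level at 1 h, and at 24 h the treated arrays of CLGN (5.30) and BEX2 (7.03) sit on the 0 h control level.

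Each treated array was placed between the controls as the percent of the way from the 0 h to the 24 h control level on the log2 scale, so that 0 is the 0 h control and 100 the 24 h control. These places share the 2 control arrays that chose the genes and carry no test. At 1 h all 5 genes stood at or past the 24 h control, CLGN at 104%, BEX2 at 105%, NIBAN1 at 108%, KLHDC7B at 109% and LAMP3 at 116%. This holds for the probe sets used, as the second ones were at 72.0% for KLHDC7B and 94.3% for NIBAN1. By the labels as given, the difference from the 0 h control was already present in the 1 h treated array. It was 2.92 log2 units for CLGN, 2.84 for BEX2, 3.44 for NIBAN1, 4.15 for KLHDC7B and 3.76 for LAMP3. With the control labels exchanged, the 1 h levels would instead lie near the 0 h control, and no such early rise would be described. Which of these holds was not tested. On the probe sets used, all 5 genes had a 0 h control at least 1 log2 unit below all arrays of 1 to 7 h. The same was seen in 0.421% of the genes tested. On the second probe set of KLHDC7B the lowest of these hours minus the 0 h control was -0.11. Since the 0 h control also entered the choice, nothing is read from that count.

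The hour at which the levels came down toward the 0 h control, as labelled, differed between the genes. KLHDC7B was at 82.7% at 3 h, 61.1% at 4 h, 44.8% at 5 h, 51.4% at 6 h and 30.6% at 7 h, so it first went under midway at 5 h and stayed under it from 7 h. On its dimmer second probe set the places were 50.5% at 2 h, 37.7% at 3 h and 26.4% at 4 h, under midway from 3 h on. NIBAN1 passed from 109% at 4 h to 89.9% at 5 h and 70.5% at 7 h, and CLGN was at 78.7% and BEX2 at 86.2% at 7 h. LAMP3 never went below 109% in these hours, with its highest place, 144%, at 3 h. CLGN, BEX2, LAMP3 and NIBAN1 thus went past midway only between 7 and 24 h, an interval without arrays. At 24 h of exposure the places were 1.47% for BEX2, 1.5% for CLGN, 9.23% for LAMP3, 14.9% for KLHDC7B and 25.4% for NIBAN1. On the linear intensity scale, NIBAN1 was already under midway at 7 h (46.2%) and KLHDC7B at 4 h (30.9%).

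**Figure D2:**
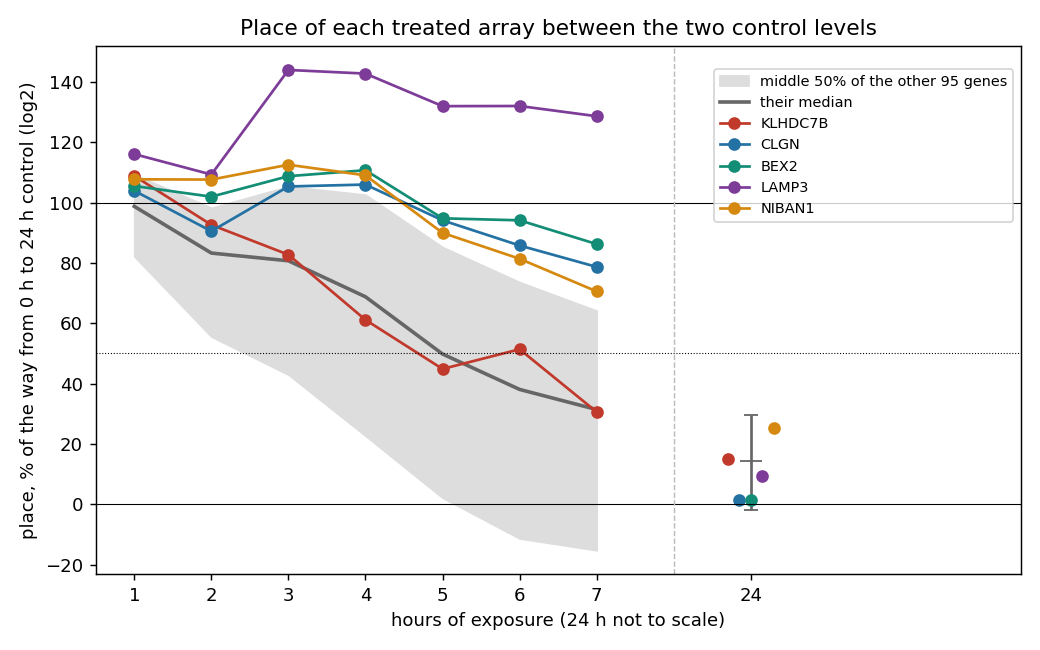
Place of each treated array (y axis, percent of the way from the 0 h to the 24 h control level on the log2 scale) by hours of exposure (x axis, 24 h not to scale, where points are set side by side). Coloured lines are the 5 genes, the grey line and band the median and middle 50% of the other 95 genes that were higher in the 24 h control by 1 log2 unit or more, and the bar at 24 h the same band. KLHDC7B runs near the grey median, while the other 4 genes, each on the probe set used, stay above the band from 5 to 7 h.

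The other 95 genes that were higher in the 24 h control by 1 log2 unit or more were placed in the same way. Their median place was 98.7% at 1 h, 68.8% at 4 h, 31.4% at 7 h and 14.4% at 24 h, and 92 of the 95 were at or above midway at 1 h, 32 at 7 h and 15 at 24 h. KLHDC7B, at 30.6% at 7 h, was close to that median. CLGN, BEX2, LAMP3 and NIBAN1 were above the upper quartile of 64.1% at 7 h. For NIBAN1 this rests on the brighter probe set, since the second, at 63.95%, was just under it. Of the 95, 32 were at or above midway at every hour from 1 to 7, as were 4 of the 5 members. Places of all these genes share the same controls, so their likeness is a description.

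The treated arrays alone were compared by tests that leave out both controls, since the gap that chose the genes would otherwise enter their spread. Over the 7 arrays of 1 to 7 h KLHDC7B fell by 0.48 ± 0.04 log2 units per hour (SE, limma adjusted p = 0.000519). NIBAN1 fell by 0.21 ± 0.04 per hour (limma adjusted p = 0.00816). BEX2 (slope -0.08 ± 0.03, limma adjusted p = 0.0591) and CLGN (-0.10 ± 0.04, limma adjusted p = 0.0829) did not pass, and after cyclic loess scaling between arrays they did (adjusted p = 0.0217 and 0.0323). LAMP3 had a slope of 0.08 ± 0.06 (limma adjusted p = 0.349). A fall was thus called for 2 of 5 members, beside 10.1% of all genes tested. The call of NIBAN1 rests on 1 probe set, since the second had a slope of -0.16 ± 0.07 (limma adjusted p = 0.149 with every probe set on its own), and it ended with log2 of the hour as the time scale (adjusted p = 0.0567).

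The mean of hours 4 to 7 was also set against that of hours 1 to 3. KLHDC7B had a mean log2 level of 8.23 ± 0.50 (SD, n = 3) in the first window and 6.41 ± 0.49 (n = 4) in the second, and fell by 1.82 ± 0.29 (SE, limma adjusted p = 0.0076). All 4 later arrays lay below the 3 earlier ones. NIBAN1 had 10.64 ± 0.09 and 9.95 ± 0.52, a difference of -0.69 ± 0.24 (limma adjusted p = 0.0637), with its 4 h array inside the range of the earlier hours. Without the 4 h array NIBAN1 passed (-0.92, adjusted p = 0.00508), and it also passed after cyclic loess scaling (-0.77, adjusted p = 0.0443). The differences of CLGN (-0.25 ± 0.18), BEX2 (-0.24 ± 0.14) and LAMP3 (0.35 ± 0.24) did not pass (limma adjusted p = 0.327, 0.229 and 0.305). LAMP3 passed without the 3 h array (0.69, adjusted p = 0.0102) and BEX2 without the 4 h array (-0.37, adjusted p = 0.0248). A fall between the windows was called for 1 of 5 members, beside 7.57% of all genes tested. That share belongs to 898 genes called lower, beside 1988 called higher, and cyclic loess scaling gave 1430 lower and 1544 higher. The scaling moved the median of the genes tested by 0.12 in the 2 h array.

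**Figure D3:**
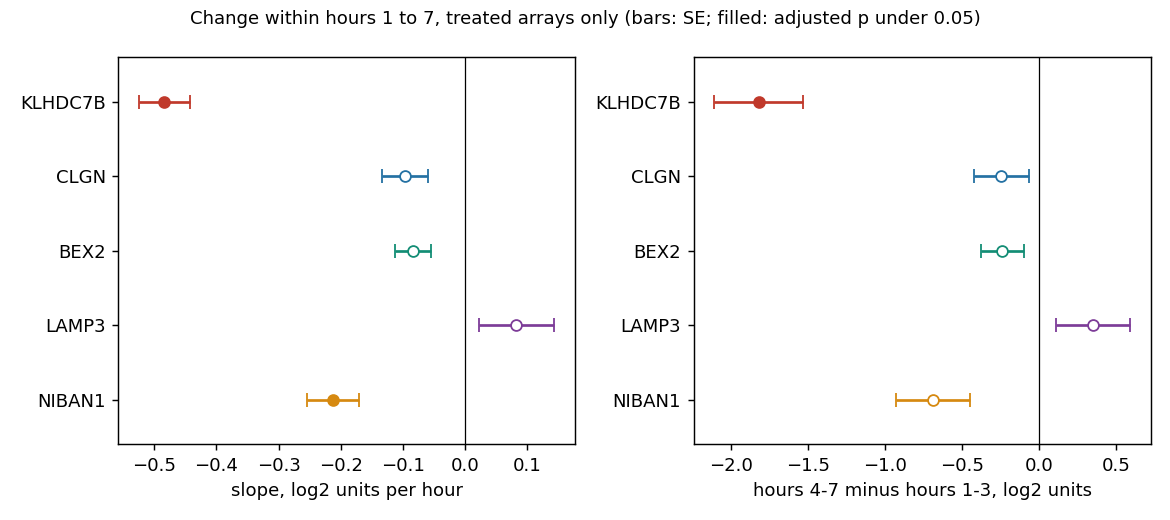
Slope per hour over 1 to 7 h (left, log2 units per hour) and difference of hours 4 to 7 from hours 1 to 3 (right, log2 units) for the 5 genes, treated arrays only. Points are limma estimates, bars standard errors, and filled points have an adjusted p under 0.05. KLHDC7B is lowest in both panels, at -0.48 and -1.82, and LAMP3 alone is above 0.

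At 24 h of exposure 4 of the 5 genes were 1 log2 unit or more below all 7 arrays of 1 to 7 h, beside 0.152% (18) of all genes tested. For NIBAN1 this rests on the brighter probe set, since the second lay 0.84 below its lowest earlier array, which would leave 3 of 5. This comparison uses no control array, but it rests on 1 array at 24 h and carries no test. It is also not free of the choice of the members. The 1 h array lay near the 24 h control and the 24 h treated array near the 0 h control (63 and 93 genes apart). A large control difference thus favours such a gap, and nothing is read from this count either. The distance below the lowest earlier array was 3.24 for LAMP3, 2.28 for BEX2, 2.17 for CLGN and 1.44 for NIBAN1. KLHDC7B, which had already fallen by 7 h, was 0.60 below its 7 h level, with both arrays under the filter level. In 13 genes both the 0 h control and the 24 h treated array lay that far below every array of 1 to 7 h, 0.11% of those tested, and 4 of the 13 were CLGN, BEX2, LAMP3 and NIBAN1. The 0 h control also entered the choice of the members, so nothing is read from that count. Among the other 9, those that were also higher in the 24 h control by 1 log2 unit or more were MAP1B, BCAT1, HMOX1, ASNS and S100P, named after their values were seen. ASNS, asparagine synthetase, had 10.95 in the 0 h control, 12.88 at 1 h, 12.47 at 7 h, 11.19 at 24 h and 12.82 in the 24 h control.

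The genes nearest in pattern were found by Pearson correlation over the 8 treated arrays among 1221 genes whose range over them was 1 log2 unit or more. CLGN and BEX2 were near each other (r = 0.994), and ASNS was nearest to both, with r = 0.997 to CLGN and 0.995 to BEX2. PLPP3 (0.994), a lipid phosphatase, followed for CLGN and S100P (0.988), a calcium-binding protein, for BEX2. Nearest to LAMP3 were WARS1 (0.992), the cytosolic tryptophanyl-tRNA synthetase, H2BC5 (0.980) and DHRS7 (0.980). NIBAN1 lay nearest to MKNK2 (0.994), a kinase acting on translation initiation, NMNAT2 (0.990), an enzyme of NAD synthesis, and LIFR (0.984), a cytokine receptor subunit. KLHDC7B lay nearest to CBS (0.971), which makes cystathionine from homocysteine, SLC1A5 (0.969), a glutamine transporter, and ZBTB2 (0.964). All correlations include the 24 h array, which stood apart for CLGN, BEX2 and LAMP3. Over the 7 arrays of 1 to 7 h CLGN and BEX2 had r = 0.936 and BEX2 and NIBAN1 0.957, while LAMP3 had 0.311 with CLGN, -0.46 with KLHDC7B and -0.01 with NIBAN1.

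Among ATF4 and amino acid response genes, 28 of the 35 tested fell from 1 to 7 h and 0 rose (slope, limma adjusted p under the threshold). Over all genes tested 10.1% fell and 16.6% rose. Of the other 95 genes higher in the 24 h control by 1 log2 unit or more, which include 24 of these 35, 65 fell and 2 rose. The median slope was -0.16 per hour for the list and -0.16 for those 95, beside 0.00 over all genes tested. NUPR1, a stress-induced chromatin protein, fell by 0.42 ± 0.03 per hour, JDP2, a transcription factor of the AP-1 family, by 0.45 ± 0.04, TRIB3, a pseudokinase, by 0.53 ± 0.05, and CARS1, the cysteinyl-tRNA synthetase, by 0.22 ± 0.02 (limma adjusted p from 0.000503 to 0.000519). Of the 24 that were higher in the 24 h control by 1 log2 unit or more, 22 were at or above midway at 1 h, 3 at 7 h and 0 at 24 h. The median of the 35 above the 0 h control was 1.15 at 1 h, 0.39 at 4 h, -0.07 at 7 h, 0.10 in the 24 h treated array and 1.37 in the 24 h control. The median of the 5 members was 3.44 at 1 h, 2.98 at 4 h, 2.25 at 7 h and 0.30 at 24 h, but they were chosen for a large control difference.

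Other lists of stress genes were set beside these. Of 19 ER chaperones and other ATF6 and XBP1 targets, 7 rose and 4 fell from 1 to 7 h, with a median slope of 0.04, beside 16.6% rising and 10.1% falling of all genes tested. Rises were seen in CRELD2 (0.17 ± 0.02 per hour), SDF2L1 (0.36 ± 0.04) and MANF (0.18 ± 0.02), all ER proteins of the unfolded protein response, while DNAJB9, an ER co-chaperone, fell by 0.15 ± 0.02. Of 10 hypoxia targets tested, 5 fell and 0 rose, with a median slope of -0.05. These included ADM, adrenomedullin, which fell by 0.24 ± 0.02 per hour, VEGFA, the vascular growth factor, by 0.19 ± 0.03, NDRG1 by 0.15 ± 0.02 and PDK1, a kinase that holds pyruvate from oxidation, by 0.08 ± 0.02. Of 11 interferon-stimulated genes tested, 2 rose and 2 fell, counts near those shares of all genes, namely OAS3 (0.17 ± 0.03) and IFIH1 (0.21 ± 0.05), sensors of double-stranded RNA, and OAS2 (-0.11 ± 0.02) and IFIT2 (-0.09 ± 0.02). Their medians from the 0 h control stayed between -0.38 and 0.06 in the treated arrays.

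**Figure D4:**
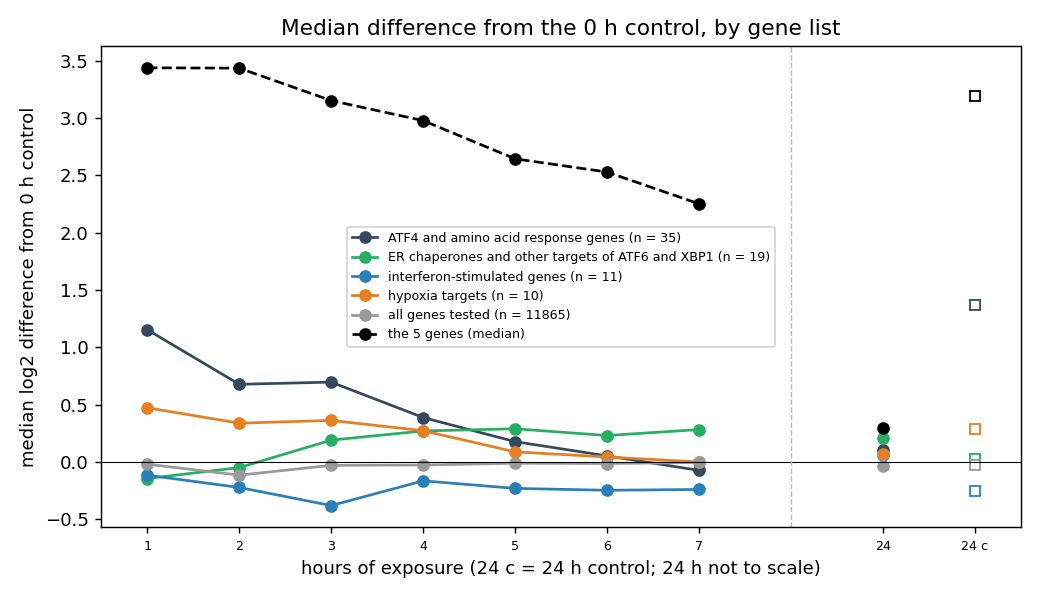
Median log2 difference from the 0 h control (y axis) by hours of exposure (x axis, 24 h not to scale) for 4 gene lists, all genes tested and the 5 members. Filled points are treated arrays and open squares the 24 h control. From 1 to 7 h the ATF4 list falls from 1.15 to -0.07 and the members' median from 3.44 to 2.25. The members were chosen for a large control difference, which sets their height.

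Of 27 measured relatives of the members, 18 passed the filter. Their control differences, over all 27, ran from -0.29 to 0.61, so 0 were 1 log2 unit or more apart, beside 2.33% of all genes tested in either direction, and nothing is read from that count. BEX1, a close paralogue of BEX2 whose transcript could share signal with it (not tested), had 3.71 in the 0 h control and 4.32 in the 24 h control, under the filter level in both. RefSeq lists BEX1 as an older name of BEX2 and the reverse, and the probe set used here was assigned to BEX2 by its gene identifier. BEX3 (13.18 and 13.30 in the controls) was bright and BEX4 (3.03 and 3.23) and BEX5 (3.42 and 3.41) were dim. CANX, calnexin, had 12.54 and 12.66, CALR, calreticulin, 11.29 and 10.99, LAMP1 12.72 and 12.74, and LAMP2 10.83 and 11.05 in the 0 h and 24 h controls. Of the 18 relatives that passed the filter, 7 fell from 1 to 7 h and 1 rose (slope, limma adjusted p under the threshold). Over all genes tested 10.1% fell and 16.6% rose. The relative that rose was NIBAN2, by 0.12 ± 0.03 per hour (limma adjusted p = 0.0232), where NIBAN1 fell. The closest relative of KLHDC7B measured, KLHDC7A, had 5.10 and 5.34 in the controls.

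Promoters are shown for the gene called falling by both the slope and the windows (KLHDC7B) and for the pair of nearest pattern (CLGN and BEX2). They run from 250 bases before to 50 after the RefSeq start on GRCh38.p14. They lie at chr22:50545649-50545948 on the plus strand, chr4:140427599-140427898 on the minus strand and chrX:103310941-103311240 on the minus strand, and read in the direction of transcription. NIBAN1, called falling by the slope only, has an entry too, but its sequence is not shown. Capitals mark matches, on either strand, to 4 motifs, namely the C/EBP-ATF composite element TGATGNAAN, the cyclic AMP response element TGACGTCA, CCACG of the ER stress element and ACGTG of hypoxia-inducible factors, the last 2 of which overlap where the letters run CCACGTG.
KLHDC7B: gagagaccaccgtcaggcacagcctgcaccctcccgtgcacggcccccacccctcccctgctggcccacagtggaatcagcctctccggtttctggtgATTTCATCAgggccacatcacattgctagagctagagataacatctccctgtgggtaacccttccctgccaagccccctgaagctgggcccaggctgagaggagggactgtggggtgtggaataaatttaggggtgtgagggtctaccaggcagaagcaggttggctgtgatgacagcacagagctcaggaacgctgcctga
CLGN: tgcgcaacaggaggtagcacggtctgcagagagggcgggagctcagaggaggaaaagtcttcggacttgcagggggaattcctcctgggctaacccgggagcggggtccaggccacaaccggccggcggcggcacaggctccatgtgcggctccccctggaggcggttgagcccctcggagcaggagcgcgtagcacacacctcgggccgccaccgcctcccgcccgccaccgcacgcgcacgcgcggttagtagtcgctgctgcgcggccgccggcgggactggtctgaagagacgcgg
BEX2: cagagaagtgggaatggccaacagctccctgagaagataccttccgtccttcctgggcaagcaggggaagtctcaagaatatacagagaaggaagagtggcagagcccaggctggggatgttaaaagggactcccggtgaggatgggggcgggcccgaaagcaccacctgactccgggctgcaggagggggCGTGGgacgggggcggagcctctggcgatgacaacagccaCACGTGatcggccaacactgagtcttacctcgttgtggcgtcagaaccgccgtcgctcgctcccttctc
The composite element was matched in the window of KLHDC7B, 152 bases before the start on the opposite strand, and in 3.61% of all 35116 windows. CCACG was matched in BEX2 and NIBAN1 (38.1% of windows), ACGTG in BEX2 on both strands at overlapping places (21.4%) and TGACGTCA in none of the 4 (1.85%). CLGN held none of the 4 motifs. A match describes letters in the window and is not a binding site.

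The cell line was checked by its markers. KRT8 and KRT18, keratins of epithelium, and VIM, vimentin, lay between 11.36 and 14.57 in all arrays. Of 10 stellate and fibroblast markers 5 passed the filter, and DCN, LUM, PDGFRB, POSTN and FAP did not. Their summed level lay between log2 11.74 and 12.31 in the treated arrays and between 12.44 and 12.52 in the controls, a sum in which COL1A2 was the brightest (11.31 to 12.23). ACTA2, smooth muscle actin, went the other way, with 9.02, 9.07, 9.18, 9.12, 9.04 and 8.91 from 1 to 6 h, above both controls (8.51 and 8.88), then 8.85 at 7 h and 8.35 at 24 h. The part of these markers in the members' levels was not tested. Of 5 leukocyte markers 2 passed the filter, and their summed level was 8.34 to 9.33 in the treated arrays and 8.45 to 8.77 in the controls. PTPRC, the common leukocyte antigen, lay at 3.71 in the 0 h control and 3.87 in the 24 h control. CD83, which with LAMP3 marks mature dendritic cells, had 8.84 at 4 h, 7.29 in the 0 h control and 6.35 in the 24 h control. CD14, the other leukocyte marker that passed the filter, went the other way. It had 7.72 in the 0 h control and 7.63 in the 24 h control, 7.29 at 1 h, 6.70 at 7 h and 5.58 at 24 h of exposure. The part of either marker in the LAMP3 levels was not tested. In bulk RNA, a change in the share of cells and a change of RNA per cell cannot be told apart.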

How the data were processed

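RNA of MiaPaCa-2 cells was measured on 10 Affymetrix arrays, 8 treated and 2 control, with 54675 probe sets. The deposited values are log2 intensities. The authors used RMA, as listed without a version per the submitters' processing notes. The number of arrays limits the precision. A filtered table of 7622 probe sets, also deposited, held the same values within 5e-09 and served as an alternative. Probe sets were named by GEO's platform annotation, where 41097 carried 1 gene symbol, 1801 several and 11777 none, and only the first were used. Each of 19775 genes was represented by its brightest probe set on average over the 10 arrays, and genes at or above the 40th percentile of these means (log2 5.79) were tested, 11865 in all. In limma 3.58.1 (R 4.3.3), two-sided tests by lmFit and eBayes were run over the 7 treated arrays of 1 to 7 h, with Benjamini-Hochberg adjustment over all genes and a threshold of 0.05. The fits were tested on simulated data. Places between the controls and all values at 24 h come from single arrays and carry no test. Python 3.11.15, pandas 2.3.3, numpy 2.4.6 and matplotlib 3.10.9 read tables and drew plots.

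The members, lists and tests were chosen with earlier results of these data known. Genes named are the 5 members, for each the 3 nearest in pattern, up to 4 of each list by smallest p of the slope, and measured relatives. The alternatives were scaling by cyclic loess, an intensity trend with robust prior, the filtered table, averaged or single probe sets, no filter or a 60th-percentile filter, leaving out each array, both controls or the 24 h treated array added to the fit, log2 of the hour, a quadratic term, the 0 h control as hour 0, linear intensities and other levels of crossing. Exchanged control labels were added after the values were seen.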

Additional observations from a re-analysis of the deposited data

Results flagged for a closer look

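Among the 8 treated arrays, the 24 h array stood apart from the others for CLGN (5.30), BEX2 (7.03) and LAMP3 (4.82), by the ratio of its gap to the nearest array over the whole range, 0.739, 0.776 and 0.743 against Dixon's critical value of 0.526. The 8 arrays are different times of exposure, not replicates of 1 time, and no array between 7 and 24 h was measured. The rate of about 1 in 20 groups standing out by chance holds for replicates, so it does not apply here. The choice by control difference also favours a low 24 h treated array, and nothing is read from these flags.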

How the results depend on the processing

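Of 146 values of the members' tests under alternatives, 129 kept their direction and their side of the threshold. Some of them could not change. The 24 h treated array added as a lone group leaves the window fit as it was. Averaging probe sets leaves the estimates of CLGN, BEX2 and LAMP3, with 1 probe set each, as they were. The 129 also include tests that passed neither in the main fit nor in the alternative. KLHDC7B passed in all 7 fits that left out an array, for the slope (adjusted p from 0.00106 to 0.00282) and for the windows (from 0.00288 to 0.0436), and its call ended with both controls in the window fit (adjusted p = 0.0969) or the 0 h control as hour 0 (slope -0.11, adjusted p = 0.771). NIBAN1 kept its slope call in all 7 such fits (adjusted p from 0.00565 to 0.0464). With the 0 h control as hour 0 the slopes of CLGN (0.16), BEX2 (0.17) and NIBAN1 (0.12) turned positive, since that control lies far below the early hours. Over all genes, 2886 passed between the windows and 3170 for the slope. With every probe set on its own these were 5171 and 5106 probe sets of a larger number tested. Leaving out an array gave 606 to 3478 for the windows (606 when the array of 2 h was left out, 1187 for 6 h, 1287 for 5 h, 1588 for 1 h and 1738 for 7 h) and 1611, without the 6 h array, to 3034 for the slope. With the 0 h control as hour 0 the slope passed in 932 genes, and 32 passed for the quadratic term in hour alone, among them none of the 5 members. The cause of these changes was not tested. Members at or above midway numbered 5 at hour 1, 4 at hour 7 and 0 at hour 24. It was 1 at 24 h with 25% as the level, and with the control labels exchanged, chosen after seeing the data, it was 0, 1 and 5. No paired analysis was possible because each time has a single array and the labels give no replicate numbers. Leaving out an array does not apply to places, which rest on single arrays. Levels under the filter, as in the 0 h control for KLHDC7B, CLGN and LAMP3, limit the size of the control difference that can be measured.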
